A study of Mus musculus with 6 samples.

Results

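Cathepsins, legumain and cystatins are represented by 10 genes, taken from the 17714 genes of the deposited table by their symbols. They comprise 8 proteases (Ctsb, Ctsd, Ctsl, Ctss, Ctsk, Ctsz, Ctsf and Lgmn) and 2 inhibitors (Cst3 and Cstb). RNA was sequenced from mouse heart tissue or heart cells after myocardial infarction (MI, 3 libraries) and after sham operation (3 libraries). All 6 libraries carry the labels day 3, WT genotype and lymphatic endothelial cells. The labels speak of heart tissue or primary heart endothelial cells, name culture medium with serum, and give no sorting step, strain or age. They do not say that the libraries of a group came from separate animals, and every p-value is therefore read against the spread of the libraries alone, which may be technical. All 10 genes were counted in every library and passed the filter on low counts.

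Cathepsins are proteases that work mainly in the acidic interior of lysosomes. Most of them, including the products of Ctsb, Ctsl, Ctss, Ctsk, Ctsz and Ctsf, cut with a cysteine in the active site, while cathepsin D, from Ctsd, is an aspartic protease. Legumain, from Lgmn, cuts after asparagine and helps to mature several cathepsins. Cystatins block cysteine cathepsins by filling the active-site cleft: cystatin C, from Cst3, is secreted, and cystatin B, from Cstb, stays mostly in the cytosol. Macrophages are rich in lysosomal proteases and use them to break down engulfed cells and to process antigen, and secreted cathepsins can also cut matrix proteins in the injured heart.

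The MI libraries held 21154342 to 21689333 counts and the sham libraries 3206732 to 3591473, so depth followed the group. A batch with the same split and an effect of the operation cannot be told apart. Markers of several cell types were found in both groups. The lymphatic regulator gene Prox1 stood at 0.18 to 0.41 TPM (a transcript level corrected for length and depth) in MI and 1.65 to 1.90 TPM in sham, while the lymphatic marker Lyve1, which some macrophages also express, stood at 7.26 to 9.23 TPM in MI and 156 to 162 TPM in sham. Of 8 lymphatic markers 7 fell and 1 rose, with a summed level of 240 to 256 TPM in MI and 473 to 498 TPM in sham. The riser was Pdpn, at 183 to 201 TPM in MI and 4.18 to 5.99 TPM in sham. Without it the other 7 summed to 54.4 to 56.5 TPM in MI and 468 to 493 TPM in sham. Of 14 macrophage and monocyte markers, 13 rose and 1 fell, and their summed level was 30209 to 31793 TPM in MI and 7312 to 7690 TPM in sham. Of 12 pan-endothelial markers all fell, with a summed level of 1201 to 1234 TPM in MI and 6285 to 6363 TPM in sham. All 8 cardiomyocyte, 5 red blood cell and 7 mural cell markers fell. No marker of the 8 lists was at 0 in any library, apart from the neutrophil genes Ly6g, Ngp and Camp in sham. In such bulk RNA, fewer cells of a type and less RNA per cell cannot be told apart. A pair of unnamed genes, LOC118568718 and Gm20594, took 0.124 to 0.167% of all TPM in MI and 13.8 to 15.5% in sham, which lowers the TPM of every other sham gene.

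Of the 8 proteases, 7 rose in MI and Ctsf fell, and of the 2 inhibitors Cstb rose while Cst3 did not pass the test. The calls come from the quasi-likelihood test of edgeR over the 13370 genes tested, with p-values adjusted by the Benjamini-Hochberg method and a threshold of 0.05. Across all of these genes 36.4% were called higher and 36.9% lower in MI, and the median log2 fold change was -0.01. Higher calls were 49.6% of all calls, and 34.9% when libraries were scaled to total counts. The 8 rises of at least 3.97-fold also passed a test against a 2-fold change, which 15.9% of all genes passed in that direction. At 8 members all 3 MI libraries lay above all 3 sham libraries, which held for 38% of all genes. The median log2 fold change was 3.29 over the 8 proteases. Since most genes were called in either direction, the members are described mainly by the size of their changes.

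Together the 10 genes took 3.76 to 3.93% of all TPM in MI and 0.559 to 0.579% in sham. The summed protease level was 34766, 35084 and 36039 TPM in MI libraries 1, 2 and 3 and 3331, 3351 and 3328 TPM in sham libraries 1, 2 and 3, 10.6 times as high on average. The summed level of the inhibitors was 2884, 3464 and 3257 TPM in MI and 2455, 2441 and 2262 TPM in sham, 1.34 times as high.

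**Figure D1:**
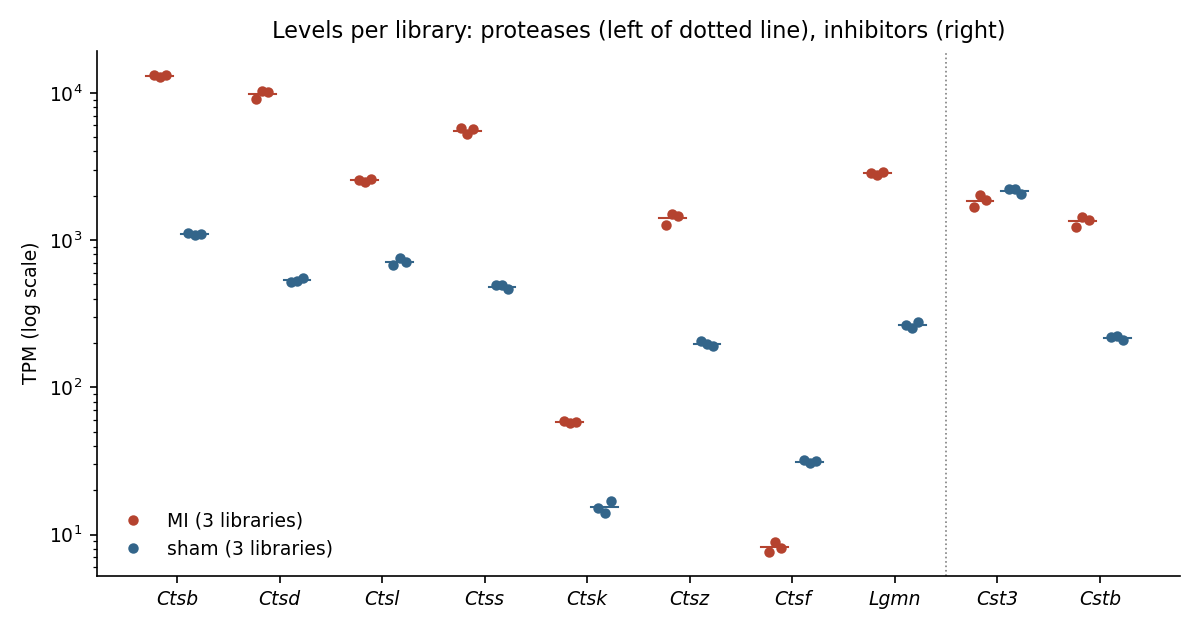
TPM of each member on a log scale in the 3 MI libraries (red) and the 3 sham libraries (blue), with the mean as a line; proteases are left of the dotted line and inhibitors right of it. Ctsf is the protease with MI values (7.63 to 8.91 TPM) below its sham values (30.4 to 32.1 TPM), and the Cst3 groups lie close together.

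Ctsb, which encodes cathepsin B, a protease that can trim ends as well as cut inside proteins, was the most abundant member in MI. Its level was 13152, 12834 and 13288 TPM in the MI libraries and 1118, 1088 and 1091 TPM in the sham libraries. The groups stood far apart, and the gene ranked 5 to 6 of all genes by TPM in the MI libraries, against 126 to 129 in the sham libraries. The log2 fold change was 3.65 ± 0.08 (SE), or 12.5-fold, with an adjusted p of 9.30e-12. The gene (Entrez 13030) is protein coding and lies at chr14:63122462-63145923 of GRCm38.p6, where 774 of its 6051 annotated exon bases overlap exons of Fdft1 on the other strand. Fdft1 was at 5.65 to 6.33 TPM in MI and 9.42 to 12.5 TPM in sham.

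Ctsd, which encodes the aspartic protease cathepsin D, a main endopeptidase of lysosomes that cystatins of this kind do not block, showed the largest rise of the 10 genes. It stood at 9128, 10240 and 10115 TPM in MI and 522, 524 and 555 TPM in sham. MI library 1 was the lowest of its group and still far above the highest sham library. The log2 fold change of 4.37 ± 0.10 (SE), or 20.7-fold, had an adjusted p of 1.99e-11, and 98.2% of all tested genes had a lower log2 fold change. Ctsd (Entrez 13033) lies at chr7:142375910-142387827 of GRCm38.p6.

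The rises of Ctss and Lgmn were close in size to that of Ctsb. Cathepsin S, from Ctss, stays active at neutral pH and cuts the invariant chain of MHC class II in antigen-presenting cells. Ctss was at 5722, 5219 and 5642 TPM in MI and 492, 493 and 463 TPM in sham, with a log2 fold change of 3.68 ± 0.08 (SE), or 12.8-fold (adjusted p = 9.30e-12). Lgmn was at 2867, 2771 and 2875 TPM in MI and 266, 251 and 277 TPM in sham, with a log2 fold change of 3.58 ± 0.08 (SE), or 12.0-fold (adjusted p = 1.60e-11). For both genes the libraries of each group kept within a narrow band, with a coefficient of variation of the TPM of 4.89% in MI and 3.502% in sham for Ctss and of 2.03% in MI and 5.01% in sham for Lgmn.

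Ctsz, which encodes cathepsin Z, a protease that removes residues from the carboxyl end, was at 1267, 1494 and 1446 TPM in MI and 206, 198 and 190.0 TPM in sham. Its rise of 7.95-fold (log2 fold change 2.99 ± 0.11, SE, adjusted p = 3.37e-10) lay between those of Ctsb and Ctsl. Its 1441 annotated exon bases share 10 with Nelfcd on the other strand, which was at 17.3 to 19.3 TPM in MI and 15.4 to 17.5 TPM in sham.

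Ctsl and Ctsk were the proteases with the smallest rises. Ctsl encodes cathepsin L, a broad lysosomal endopeptidase made by many cell types, and was at 2564, 2459 and 2607 TPM in MI and 679, 753 and 704 TPM in sham. It rose 3.97-fold (log2 fold change 1.99 ± 0.08, SE, adjusted p = 4.61e-10). Ctsk encodes cathepsin K, the collagen-cutting protease of osteoclasts, and was at 58.6, 57.5 and 58.3 TPM in MI and 15.2, 13.95 and 16.9 TPM in sham. It rose 4.24-fold (log2 fold change 2.08 ± 0.12, SE, adjusted p = 1.99e-08), with 940 to 1045 estimated counts per MI library and only 44.0 to 49.9 per sham library.

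Ctsk and Ctss lie side by side on chromosome 3, at chr3:95499210-95509387 and chr3:95526786-95556405 of GRCm38.p6, with 17398 bases and 1 RefSeq gene, the long non-coding RNA Gm40096, between them. Despite this they stood at very different levels. There were 97.6, 90.7 and 96.8 Ctss TPM for each Ctsk TPM in the MI libraries and 32.4, 35.3 and 27.4 in the sham libraries. The ranges did not overlap, and the ratio was 3.00 times as high in MI.

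Ctsf, which encodes cathepsin F, a cysteine cathepsin with an unusually long propeptide that holds a cystatin-like domain, went the other way. It stood at 7.63, 8.91 and 8.11 TPM in MI and 32.1, 30.4 and 31.5 TPM in sham, from 152 to 199.99 estimated counts per MI library and 115 to 130.0 per sham library. All 3 MI libraries lay below all 3 sham libraries. The log2 fold change was -1.76 ± 0.14 (SE), 3.39-fold lower in MI, with an adjusted p of 2.10e-07, and 10.1% of all tested genes had a lower log2 fold change. The gene (Entrez 56464) lies at chr19:4855165-4860918 of GRCm38.p6 and overlaps no other RefSeq gene. It ranked 7632 to 8514 of all genes by TPM in MI and 3908 to 4066 in sham.

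**Figure D2:**
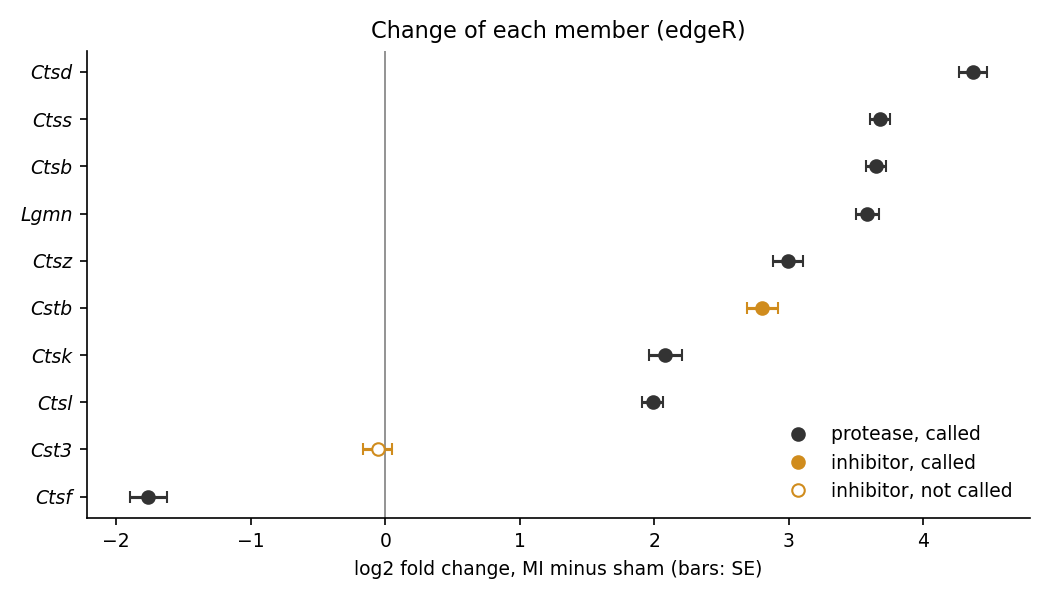
Log2 fold change of each member, MI minus sham, with its SE, from edgeR's quasi-likelihood fit over all genes. The values run from -1.76 for Ctsf to 4.37 for Ctsd, and the open point marks Cst3, which was not called.

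Set against each of the other 7 proteases within the same library, Ctsf was lower in MI in every case. The shift in the log2 TPM ratio was smallest against Ctsl (-8.28 ± 0.15 in MI and -4.51 ± 0.11 in sham, SD, n = 3 each, a difference of -3.77) and largest against Ctsd (-10.2 ± 0.06 in MI and -4.09 ± 0.06 in sham, a difference of -6.13). Against Ctsk, the other protease of low level, the log2 ratio was -2.83 ± 0.13 in MI and 1.03 ± 0.12 in sham (SD, n = 3 each), so the order of these genes turned round: Ctsf was the lowest of the 10 in MI, and Ctsk was the lowest in sham. All 7 ratios kept the groups apart, and for each the exact permutation test, taken two-sided, gave p = 0.1, the smallest value possible with 3 against 3 libraries, with an adjusted p of 0.1 over the 24 ratios computed between members. Such ratios do not depend on how the libraries are scaled. How often ratios of other gene pairs keep the groups apart is not given here.

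The inhibitors parted from each other. Cstb was at 1220.1, 1443 and 1379 TPM in MI and 219, 223 and 209 TPM in sham, and rose 6.97-fold (log2 fold change 2.80 ± 0.12, SE, adjusted p = 7.64e-10). Cst3 was at 1664, 2021 and 1879 TPM in MI and 2236, 2219 and 2053 TPM in sham. On this scale the MI libraries lay just below the sham libraries. With LOC118568718 and Gm20594 taken out of the TPM total the gap was wider, at 1667 to 2023 in MI and 2429 to 2594 in sham. The CPM (counts relative to library size, scaled by edgeR) of the groups overlapped, at 825 ± 129 in MI and 858 ± 36.9 in sham (SD, n = 3 each). The log2 fold change of Cst3 was -0.06 ± 0.10 (SE, adjusted p = 0.634), and also -0.06 without these unnamed genes.

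That small value changed its sign in 1 of the 17 alternatives and its call in 2. Without MI library 1 it was 0.080, and it was -0.41, a call of lower (adjusted p = 0.00303), with libraries scaled to total counts, where the median of all genes was -0.36. On log2(TPM + 1) it was -0.23, also a call (adjusted p = 0.0266), where the median of all genes was -0.14. Over all 17 alternatives the adjusted p ran from 0.00303 to 1.0. Among the libraries Cst3 made up 57.7 to 58.3% of the summed inhibitor TPM in MI and 90.8 to 91.1% in sham. The log2 ratio of Cst3 to Cstb was 0.46 ± 0.02 in MI and 3.32 ± 0.03 in sham (SD, n = 3 each, exact permutation p = 0.1).

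Proteases were set against their inhibitors in each library. The summed TPM of the 8 proteases was 12.1, 10.1 and 11.1 times that of Cst3 and Cstb in the MI libraries and 1.36, 1.37 and 1.47 times in the sham libraries, or 7.91 times as high in MI on average. The shift was larger against Cst3 than against Cstb. Against Cst3 alone the ratio was 17.4 to 20.9 in MI and 1.49 to 1.62 in sham (12.4 times as high). Against Cstb alone it was 24.3 to 28.5 in MI and 15.0 to 15.9 in sham (1.71 times as high). The sum includes cathepsin D, which is not a target of these inhibitors, and legumain, which is not a cathepsin. No test was made of a sum over chosen members.

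**Figure D3:**
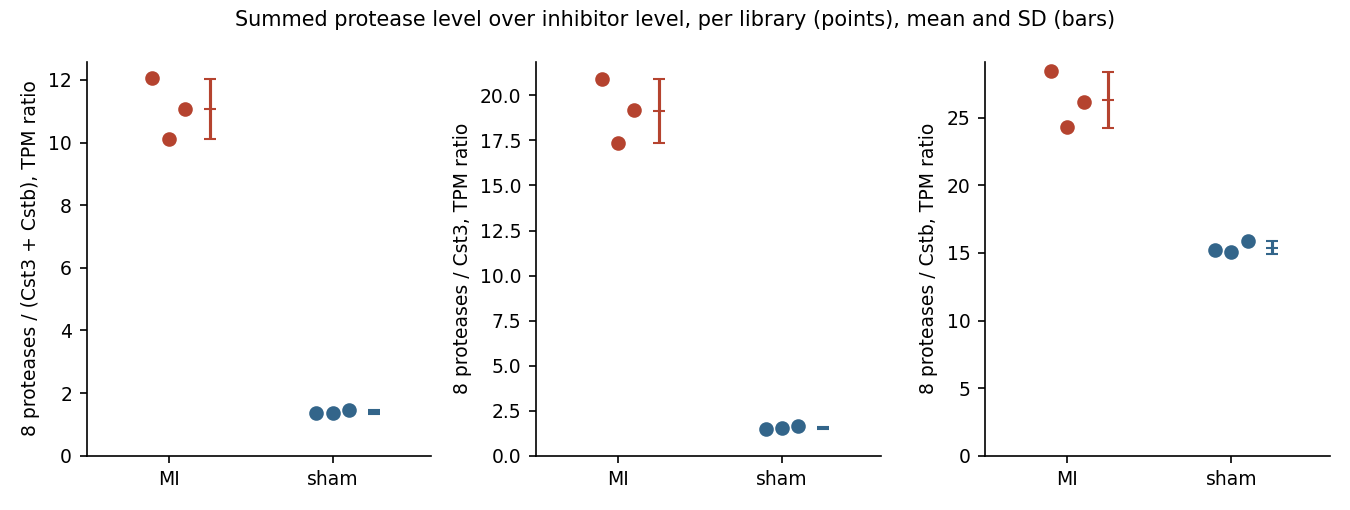
Summed TPM of the 8 proteases divided by the TPM of both inhibitors (left), of Cst3 (middle) and of Cstb (right), for each library (points) with mean and SD. The ratio to both inhibitors is 10.1 to 12.1 in MI and 1.36 to 1.47 in sham, while the ratio to Cstb differs less, at 24.3 to 28.5 in MI and 15.0 to 15.9 in sham.

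Protease by protease, 7 of 8 were higher and Ctsf was lower in MI relative to Cst3, and 5 were higher and 3 lower relative to Cstb. The 5 were Ctsb, Ctsd, Ctss, Ctsz and Lgmn. Cathepsin D, from Ctsd, is not a target of these inhibitors. Legumain, from Lgmn, is not a cathepsin, and its ratio to Cstb is not taken as that of a protease to its inhibitor. The largest shift against Cst3 was that of Ctsd, with a log2 ratio of 2.41 ± 0.06 in MI and -2.02 ± 0.12 in sham (SD, n = 3 each, exact permutation p = 0.1). Relative to Cstb, the proteases that were lower were Ctsf, Ctsl and Ctsk. Ctsl, for example, had a log2 ratio to Cstb of 0.92 ± 0.15 in MI and 1.71 ± 0.07 in sham (exact permutation p = 0.1). Ctsz moved nearly in step with Cstb, with log2 ratios of 0.06 ± 0.01 in MI and -0.13 ± 0.04 in sham (exact permutation p = 0.1, adjusted p = 0.1). None of the 24 ratios had overlapping groups. The share of other gene pairs for which this holds is not given here, and 38% of single genes had all MI libraries above all sham libraries.

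The make-up of the protease transcripts also differed. Ctsb formed 36.6 to 37.8% of the summed protease TPM in MI and 32.5 to 33.6% in sham. The share of Ctsd was 26.3 to 29.2% in MI and 15.6 to 16.7% in sham, and that of Ctsl was 7.01 to 7.37% in MI and 20.4 to 22.5% in sham. Lgmn kept a like share, 7.90 to 8.25% in MI and 7.48 to 8.32% in sham, with overlapping ranges. Ctsf formed 0.0219 to 0.0254% in MI and 0.907 to 0.962% in sham. By level, Ctsb was followed in MI by Ctsd, Ctss, Lgmn and Ctsl, and in sham by Ctsl, Ctsd, Ctss and Lgmn. Cst3 stood above every protease in all sham libraries and below 5 of them in all MI libraries. The only neighbours in this order whose ranges overlapped were Ctsz and Cstb in MI.

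**Figure D4:**
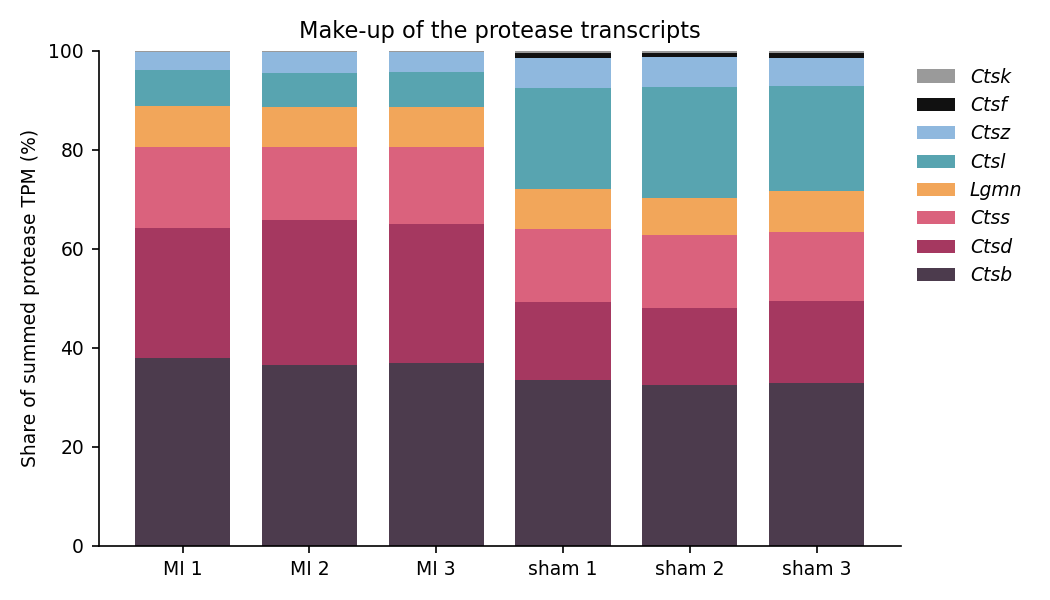
Share of each protease in the summed protease TPM, in percent, for MI libraries 1 to 3 and sham libraries 1 to 3. The Ctsd share is 26.3 to 29.2% in MI and 15.6 to 16.7% in sham, and the Ctsl share is 7.01 to 7.37% in MI and 20.4 to 22.5% in sham.

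Macrophage and endothelial markers moved with these changes, and the members were therefore also set against single marker genes. The result depended on the marker, since the log2 fold changes of the 14 macrophage markers ran from -2.90 for Cd163 to 3.93 for Fcgr1, with a median of 2.29 and 3.86 for Cd68. Ctsd was higher in MI, with no overlap, relative to all 14 of them. Ctsb and Ctss were each higher relative to 11, lower relative to Fcgr1 and overlapping relative to Cd68 and Itgam. Ctsl was higher relative to 5 and lower relative to 8, and Ctsf and Cst3 were each lower relative to 13, all but Cd163. For each TPM of Cd68, a lysosomal membrane protein of macrophages, Ctsb stood at 6.005 to 6.93 TPM in MI and 6.84 to 7.22 TPM in sham, and Ctss at 2.44 to 3.02 TPM in MI and 2.91 to 3.27 TPM in sham; both pairs of ranges overlapped. Ctsd was higher on this measure, at 4.79 to 4.89 TPM in MI and 3.22 to 3.48 TPM in sham. Ctsl was lower, at 1.15 to 1.35 TPM in MI and 4.19 to 4.996 TPM in sham, as was Cst3, at 0.877 to 0.945 TPM in MI and 12.9 to 14.7 TPM in sham. Lgmn, Ctsk, Ctsz, Cstb and Ctsf were lower per Cd68 TPM in MI too, with no overlap.

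Other markers gave other values. For each TPM of Ptprc, the pan-leukocyte gene, Ctsb stood at 43.6 to 65.3 TPM in MI and 26.3 to 27.1 TPM in sham. Per Ptprc TPM, Ctsl was at 8.50 to 12.5 TPM in MI and 16.02 to 18.2 TPM in sham. Lgmn, lower per Cd68 TPM, was higher per Ptprc TPM, at 9.51 to 14.1 TPM in MI and 6.05 to 6.90 TPM in sham. Ctsz and Cstb overlapped per Ptprc TPM, at 4.201 to 7.61 TPM in MI and 4.73 to 4.86 TPM in sham for Ctsz and at 4.05 to 7.35 TPM in MI and 5.16 to 5.38 TPM in sham for Cstb. Both genes lay below all sham libraries in MI library 1 and above them in MI libraries 2 and 3. Ptprc itself was at 302 TPM in MI library 1 and at 196 and 225 TPM in MI libraries 2 and 3. For each TPM of Pecam1, a junction protein of endothelial cells, Ctsb was at 61.8 to 65.4 TPM in MI and 1.15 to 1.20 TPM in sham. Ctsf differed least on that measure, with 0.0359 to 0.0454 TPM in MI and 0.0321 to 0.0344 TPM in sham per Pecam1 TPM. That is 1.21 times as high in MI, with no overlap. No other endothelial marker was used in this way. The 12 pan-endothelial markers had log2 fold changes from -3.02 for Emcn to -1.60 for Eng, with -2.05 for Pecam1. Eng thus fell less than Ctsf, at -1.76. The fibroblast list, in which 4 of 9 genes rose and 5 fell, had a median of -1.73. The mural cell list, in which all 7 genes fell, had a median of -1.48. The part that a shift in cell types had in these changes was not tested.

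**Figure D5:**
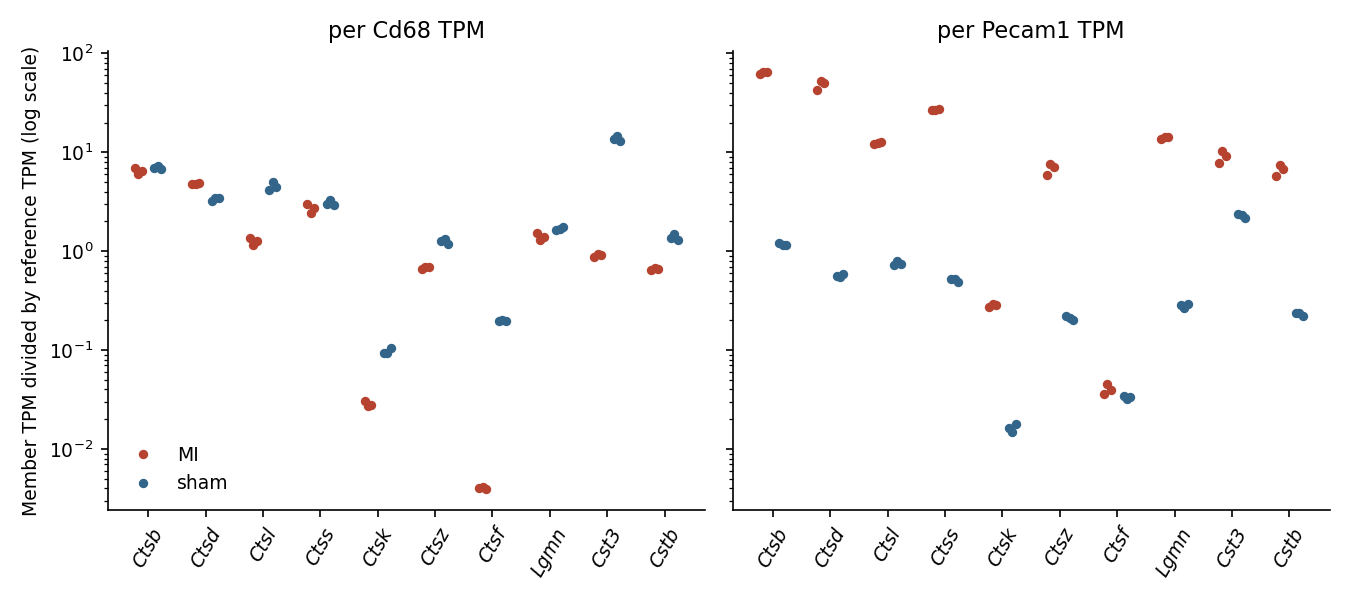
TPM of each member divided by the TPM of Cd68 (left) or Pecam1 (right) in the same library, on a log scale, for MI (red) and sham (blue). Per Cd68 the Ctsb ranges overlap (6.005 to 6.93 in MI and 6.84 to 7.22 in sham), and per Pecam1 the Ctsf values lie close together (0.0359 to 0.0454 in MI and 0.0321 to 0.0344 in sham).

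The genes whose pattern over the 6 libraries was most like that of Ctsf were Fam131a, Hspb1, Grap and Cox8b, with Pearson's r of 0.9997 to 0.9999 of log2(CPM + 0.5). This is a description only, since the 6 points fall into the MI and sham groups, and 20.1% of the 9411 genes compared had an r above 0.95. The fall was of different size in these genes, with log2 fold changes from -4.66 ± 0.25 for Cox8b to -2.08 ± 0.12 for Grap (SE).

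Promoter windows from 250 bases before to 50 bases after the RefSeq start were at hand for 8 of the 10 genes, in 9 windows of GRCm38.p6. They were searched on both strands for CACGTG, the core bound by TFEB and its relatives, which control many lysosomal genes, for its longer form TCACGTGA, which contains it, and for GAGGAAGT, a form of the site of the myeloid factor PU.1. CACGTG was found in 4 of the 9 windows, those of Ctsd, Ctsf and inner starts of Ctsl and Lgmn, and in 7.15% of all 32851 promoter windows. TCACGTGA was found at Ctsd, and in 0.974% of all windows, and GAGGAAGT at Ctss, read on the other strand across the start, and in 3.20% of all windows. Ctsd, with the largest rise, and Ctsf, which fell, thus both hold CACGTG. A match is a match of letters and no evidence of binding.

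Shown first are the whole windows of the gene that rose most, the gene that fell and the antigen-processing gene Ctss, 5′ to 3′ on the strand of the gene, with matches in capitals. They lie at chr7:142387778-142388077 on the minus strand, chr19:4854915-4855214 on the plus strand and chr3:95526536-95526835 on the plus strand.
Ctsd: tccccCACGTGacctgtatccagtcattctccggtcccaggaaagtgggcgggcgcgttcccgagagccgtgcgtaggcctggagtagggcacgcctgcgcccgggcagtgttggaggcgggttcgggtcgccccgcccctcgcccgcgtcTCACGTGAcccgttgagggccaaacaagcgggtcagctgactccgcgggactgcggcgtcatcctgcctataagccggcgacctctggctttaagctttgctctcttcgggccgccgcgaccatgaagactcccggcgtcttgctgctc
Ctsf: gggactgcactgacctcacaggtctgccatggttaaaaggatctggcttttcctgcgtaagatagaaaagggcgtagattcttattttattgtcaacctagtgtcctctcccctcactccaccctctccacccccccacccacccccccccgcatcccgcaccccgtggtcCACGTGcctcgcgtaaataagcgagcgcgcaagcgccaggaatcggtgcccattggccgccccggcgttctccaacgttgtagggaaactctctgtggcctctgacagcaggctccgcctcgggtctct
Ctss: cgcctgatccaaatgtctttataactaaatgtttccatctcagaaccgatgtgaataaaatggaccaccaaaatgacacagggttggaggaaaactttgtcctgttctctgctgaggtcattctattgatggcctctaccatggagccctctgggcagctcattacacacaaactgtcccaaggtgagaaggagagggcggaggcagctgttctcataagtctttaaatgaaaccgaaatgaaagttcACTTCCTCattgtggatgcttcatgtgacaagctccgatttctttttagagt

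For comparison, the sites of Ctsl and Lgmn are shown with up to 20 bases on each side, from chr13:64370731-64370770 and chr12:102439116-102439161, both on the minus strand. The sites begin 236 and 49 bases before the starts on which the windows are built, against 98 bases for the inner site of Ctsd and 79 bases for that of Ctsf. The annotated genes begin further upstream, at chr13:64370772 for Ctsl and chr12:102439728 for Lgmn, so both sites lie inside the genes.
Ctsl: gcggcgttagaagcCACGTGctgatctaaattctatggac
Lgmn: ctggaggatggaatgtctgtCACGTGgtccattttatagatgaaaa

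Other cathepsins mostly rose as well. For this list and those that follow, the share of all genes tested was 36.4% called higher and 36.9% called lower. Of 18 listed relatives 9 were in the table and 6 were tested; 4 rose and 2 fell, with a median log2 fold change of 2.43. Ctsa, a carboxypeptidase that also protects other lysosomal enzymes, rose 6.34-fold to 1092 ± 102 CPM in MI, against 172 ± 8.27 CPM in sham (SD, n = 3 each). Ctsc, which activates the granule proteases of leukocytes, rose 5.40-fold, and Ctsh, an aminopeptidase, 5.36-fold. Ctse, an aspartic protease, rose 10.8-fold from a low level, to 5.74 ± 0.477 CPM in MI, against 0.517 ± 0.245 CPM in sham. Ctso fell 1.58-fold, with 61.9 ± 4.89 CPM in MI and 97.9 ± 5.50 CPM in sham, and Tinagl1, a relative without protease activity, fell 3.62-fold.

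Other inhibitors were divided. Of 32 listed, 22 were in the table and 12 were tested. In all 6 rose and 6 fell, with a median log2 fold change of -0.17, or 5 and 6 with a median of -0.52 when libraries were scaled to total counts. The split followed the class of inhibitor in part. Of the cystatin and stefin genes tested, Cst7, Cstdc4, Csta2 and Stfa2l1 rose and Cst6 fell. Of the rest, Serpinb6a and Serpina3g rose, and Ctla2a, Ctla2b, Serpinb1a, Serpinb6b and Serpinb9 fell. Ctla2a, a mouse inhibitor of cathepsin L, fell 3.13-fold, with 79.9 ± 2.74 CPM in MI and 250.5 ± 10.6 CPM in sham (SD, n = 3 each). Serpinb1a and Serpinb9, which inhibit serine proteases of leukocyte granules, fell 3.86-fold and 3.56-fold. Cst6 was at 0.368 ± 0.049 CPM in MI and 1.62 ± 0.747 CPM in sham and also fell. Cst7, which encodes cystatin F of leukocytes, had 137 counts over the MI libraries and 0 over the sham libraries, at least 9.26-fold higher in MI against 3 counts over the sham group, a bound for counting error only; with Cst7 at this bound the median was again -0.17.

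Among the inhibitors that rose, Serpina3g, a serpin that can block cathepsins, did so 4.05-fold. The stefin genes Stfa2l1 and Cstdc4, known from mouse neutrophils, had 662 and 521 counts over the MI libraries against 2 and 1 counts over the sham libraries. That is a ratio of 67.1 (exact binomial 95% interval of counting error 18.5 to 555) for Stfa2l1 and 106 (18.9 to 4181) for Cstdc4. Stefin genes have near-identical copies among which reads can be divided, so both values are uncertain. Of 10 neutrophil markers 8 were tested and 7 rose, and their summed level was 1718 to 2115 TPM in MI and 91.7 to 117 TPM in sham; the part of neutrophils in these values was not tested.

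Genes that carry enzymes to lysosomes rose, with 9 of 10 called higher and none lower (median log2 fold change 1.23), or 7 higher and none lower with libraries scaled to total counts. Lrp1, an endocytic receptor that also takes up cathepsin D, rose 11.3-fold to 1221 ± 20.7 CPM in MI, against 108 ± 10.7 CPM in sham (SD, n = 3 each). M6pr, which encodes a receptor for the mannose 6-phosphate tag of lysosomal enzymes, rose 4.05-fold, and Gnptab, which makes that tag, 4.005-fold. Gga3, named after its value was seen, had 21.4 ± 0.992 CPM in MI and 18.0 ± 2.16 CPM in sham and did not pass (adjusted p = 0.110).

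Of 5 regulators of lysosomal genes, 4 rose. Tfec, a myeloid relative of TFEB, rose 17.8-fold to 63.1 ± 2.63 CPM in MI, against 3.51 ± 0.987 CPM in sham (SD, n = 3 each). Mitf rose 9.02-fold and Tfe3 2.05-fold. Tfeb itself, named after its value was seen, had 18.4 ± 2.34 CPM in MI and 22.0 ± 1.19 CPM in sham and did not pass (adjusted p = 0.108), though it was called lower with libraries scaled to total counts.

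Of 7 genes for known cathepsin substrates, 5 rose and 2 fell. The endosomal receptor gene Tlr9 rose 9.69-fold and Tlr7 4.49-fold, while Tlr3 fell 2.30-fold. The collagen gene Col1a1 rose 6.30-fold and Eln, which encodes elastin, fell 1.66-fold. Cd74, the invariant chain that cathepsin S cuts, chosen with its value known, was at 1863 to 2272 TPM in MI and 1886 to 1976 TPM in sham; it was called higher by 1.23-fold (adjusted p = 0.0230), a call that was lost with libraries scaled to total counts. Col1a1 and Col1a2 are also in the fibroblast list, where 4 of 9 genes rose and 5 fell.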

How the data were processed

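The deposited table gave, per gene and library, the authors' estimated counts with 2 decimals; per the series' design text the reads had been aligned to GRCm38. The authors also deposited FPKM, TPM and scaled read counts (signal, not used here) per library. The submitters' processing notes name GRCm38.p6 and Agilent Feature Extraction 9.1 (software for microarrays), without saying what it was used for. The aligner, counting program, annotation, strand setting and filters are not given in the sources used here.

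Groups and replicate numbers came from the sample titles. Rounding made the estimated counts whole. With R 4.3.3, edgeR 4.0.16 kept 13370 of 17714 genes (filterByExpr), scaled libraries by TMM and fitted a quasi-likelihood model on the group alone. Calls used a two-sided Benjamini-Hochberg adjusted p of 0.05 over all genes tested. CPM were scaled by TMM; each log2 fold change is MI over sham, and its SE is the log2 fold change over the square root of F. Levels were taken from the TPM columns. Ratios between members used log2 TPM, the exact two-sided permutation test and adjustment over 24 ratios. The procedure was tested on simulated data.

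Gene positions came from RefSeq of GRCm38.p6, which matched 17576 genes by identifier, promoter windows from RefSeq of the same build, and exons from GENCODE M21 (GRCm38). Of the members, Ctsb and Cstb had no promoter window. The alternatives were DESeq2 1.42.0, limma 3.58.1 (voom, and with trend on log2(TPM + 1), keeping genes that reach 1 TPM in 3 libraries), RLE and total-count scaling, no filter, stricter filtering (100 counts in all, and 1 CPM throughout a group), the replicate number as a block, a test above 2-fold, MI libraries thinned to the sham depth, and each library left out; leaving out LOC118568718 and Gm20594, and each inhibitor alone, were added after seeing the data. The members and all lists were chosen with earlier results of these data known. Named genes were the 10 members, up to 3 of the largest called rises and falls of each list with at least 5 CPM in the higher group, Ctsa, Ctsc, Ctsh, Cst6, Cst7 and Ctla2a, the reference genes Cd68, Ptprc and Pecam1, and the 4 genes of at least 10 CPM most like Ctsf; markers were named with their values known. Library pairs of a group had a chi-square of 4.14 to 35.3 per gene in MI and 1.54 to 1.77 in sham. All 6 libraries were used as separate ones. These values cannot show that they came from separate samples, least of all in sham, where the values were lowest.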

Additional observations from a re-analysis of the deposited data

How the results depend on the processing

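Ctsb, Ctsd, Ctsl, Ctss, Ctsk, Ctsz, Lgmn and Cstb stayed called higher, and Ctsf lower, under all 17 alternatives; the log2 fold change of Ctsf ran from -2.11 to -1.65. Cst3 ran from -0.17 to 0.080 with a library left out, the highest without MI library 1, and was called lower with total-count scaling (-0.41) and on log2(TPM + 1) (-0.23), which put 2 members in place of 1 among those called lower; the cause was not tested. Higher calls made up 49.6% of all calls, and 34.9% with total-count scaling. Testing for a change above 2-fold left 2121 genes higher and 2039 lower, in place of 4861 and 4940. Leaving out a library gave 4284 to 5012 genes higher and 4312 to 4913 lower. The protease to inhibitor ratio, 2.98 log2 units higher in MI, was 3.12 with CPM, 3.64 with Cst3 alone and 0.77 with Cstb alone, and 2.92 to 3.05 with a library left out. The shift of Ctsf against each other protease kept its direction under all 9 alternatives. The labels do not say that the replicate numbers pair the libraries. Deviations of same-numbered libraries had correlations of -0.07, -0.04 and 1e-04, which with 3 libraries per group cannot show whether they were paired. With the replicate number as a block Cst3 was -0.07, Ctsf -1.77, and no member changed its call. With 44.0 to 49.9 counts per sham library, Ctsk was the member most limited by depth.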
